A study of Mus musculus with 4 samples.

Results

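A set of 10 genes known to report on the RAS-ERK branch of MAPK signalling was followed in 4 cultured mouse melanoma lines. The genes were chosen by name: the ERK phosphatases Dusp4 and Dusp6, the Sprouty genes Spry1, Spry2 and Spry4, the Sprouty-related genes Spred1 and Spred2, and the ETS transcription factors Etv1, Etv4 and Etv5. All 10 were on the array, with 11 of its 33012 probes, since Spred1 had 2 probes and the others 1 each. In the RefSeq gene table Spred1 lies on chromosome 2, Spry1 on 3, Dusp4 on 8, Dusp6 on 10, Spred2 and Etv4 on 11, Etv1 on 12, Spry2 on 14, Etv5 on 16 and Spry4 on 18. The files identify them as mCG22284.2 (Dusp4), mCG19867.1 (Dusp6), mCG12666.1 (Spry1), mCG121239.1 (Spry2), mCG18339.2 (Spry4), mCG14558.2 (Spred1), mCG11065.2 (Spred2), mCG19074.2 (Etv1), mCG20218.2 (Etv4) and mCG127346.2 (Etv5). Parental B16 is a melanoma line of C57Bl6 background, which the protocols name B16F1. B16-RI was grown from lymph node metastases after B16F1 cells had been injected into the back skin of C57BL6 mice. B16-RII came from lymph node metastases and B16-RIIL from lung metastases after B16-RI had itself been injected. All 4 lines were kept in medium with 20% fetal bovine serum for up to 10 passages, and the RNA of a line was pooled from 2 passage numbers. Whether a line was a clone is not given in the sources used here. The study describes duplicate cultures, and its table also holds columns of a second array under each line name. No labelled sample corresponds to those columns, so they are left out here. The values below are therefore of 1 Applied Biosystems array per line, the array its label names, and carry no replicate error and no p-value. In RNA of whole cultures, fewer cells of a kind and less RNA per cell cannot be told apart.

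In this pathway growth factor receptors activate RAS, which starts a relay of the RAF, MEK and ERK kinases. Active ERK enters the nucleus and raises transcription of genes whose products switch the pathway off again, among them dual specificity phosphatases, Sprouty and Spred proteins, and of ETS factors of the PEA3 group. Because these transcripts follow ERK activity in many cell types, they are widely used as a readout of it, and in melanoma they are commonly high where BRAF or RAS is mutated. Here only RNA was measured, and neither ERK phosphorylation nor protein.

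A probe was taken as detected on an array when its signal-to-noise ratio (S/N) was at least 3 and its flag at most 5000. Between 13872 and 14855 probes were detected per array and 11604 on all 4. Levels are the deposited normalized signal, listed below as a run of 4 values in the order B16, B16-RI, B16-RII, B16-RIIL, and differences are of its log2. The deposited scaling divided each array by 1 of 2 constants, for 2 probe sets of 16524 and 16488 probes, and the sets were not level with each other. Among probes detected on all 4 arrays, the median log2 difference from B16 was 0.39, 0.41 and 0.46 in B16-RI, B16-RII and B16-RIIL for the first probe set. It was 0.07, 0.42 and -0.01 for the second probe set. Of the members, 9 probes lay in the first probe set, and those of Dusp6 and Spry4 in the second. Differences are therefore also given after subtracting from each probe the median of its set, called centring below. As a gauge of error within an array, 806 pairs of probes for the same gene, over 561 genes, were compared after centring. Their differences from B16 disagreed by a median of 0.16, 0.24 and 0.27 log2 units in B16-RI, B16-RII and B16-RIIL, and 90% of pairs disagreed by less than 0.65, 0.73 and 0.75. This gauge does not contain the spread between cultures. Of 8 melanocyte marker probes, 7 were detected on all 4 arrays, those of Mitf, Pax3, Tyr, Tyrp1, Dct, Pmel and Kit, and that of Ednrb on none.

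Dusp4, Dusp6 and Etv1 were brighter in every passaged line than in B16, by 1.72-fold to 3.79-fold, while Spry2, Spry4 and Etv4 stayed within 1.26-fold over all 4 arrays in the deposited values. After centring, the former were still above B16 in all 3 lines, while Spry2, Spry4 and Etv4 lay below it in each, the lowest being Etv4 in B16-RIIL at -0.60 log2 units. With the deposited values, member probes at least 2-fold above B16 and detected on the brighter array were those of Dusp4 and Etv1 in B16-RI, of Dusp4, Dusp6, Etv1 and Etv5 in B16-RII, and of Dusp4 and Etv1 in B16-RIIL. No member probe was at least 2-fold below B16 in any passaged line. Of all probes detected on at least 1 of the 2 arrays, 10.2%, 13.1% and 12.7% were above B16 by the same rule in B16-RI, B16-RII and B16-RIIL, and 9.34%, 7.60% and 8.41% were below. At those shares, 1.02, 1.44 and 1.27 of the detected member probes would be above. The counts of 2 in B16-RI and 2 in B16-RIIL were within 1 probe of this background. The count of 4 in B16-RII includes Etv5, which was detected in that line alone, and Dusp6, which did not keep the limit under other scalings. It was 3 with detection on every array. After centring, the member probes above B16 were 0, 1 and 1, near the 0.793, 0.728 and 0.812 that background shares of 7.93%, 6.62% and 8.12% give, and that of Spred2 was below B16 in B16-RI, against 11.3%. The 1 probe above was that of Etv5 in B16-RII and that of Dusp4 in B16-RIIL. The median log2 difference over the member genes detected was 0.26 in B16-RI over 9 genes, 0.71 in B16-RII over 10 and 0.48 in B16-RIIL over 9. Over all probes it was 0.19, 0.39 and 0.22. Etv5 entered in B16-RII only, the line where it was detected. Over the 8 genes detected on every array the medians were 0.40, 0.48 and 0.68, beside 0.21, 0.41 and 0.22 over all probes so detected, and B16-RII was no longer the highest. After centring, the member medians were -0.07, 0.28 and -0.04, beside 0.01, -0.04 and -0.04 over all probes.

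**Figure D1:**
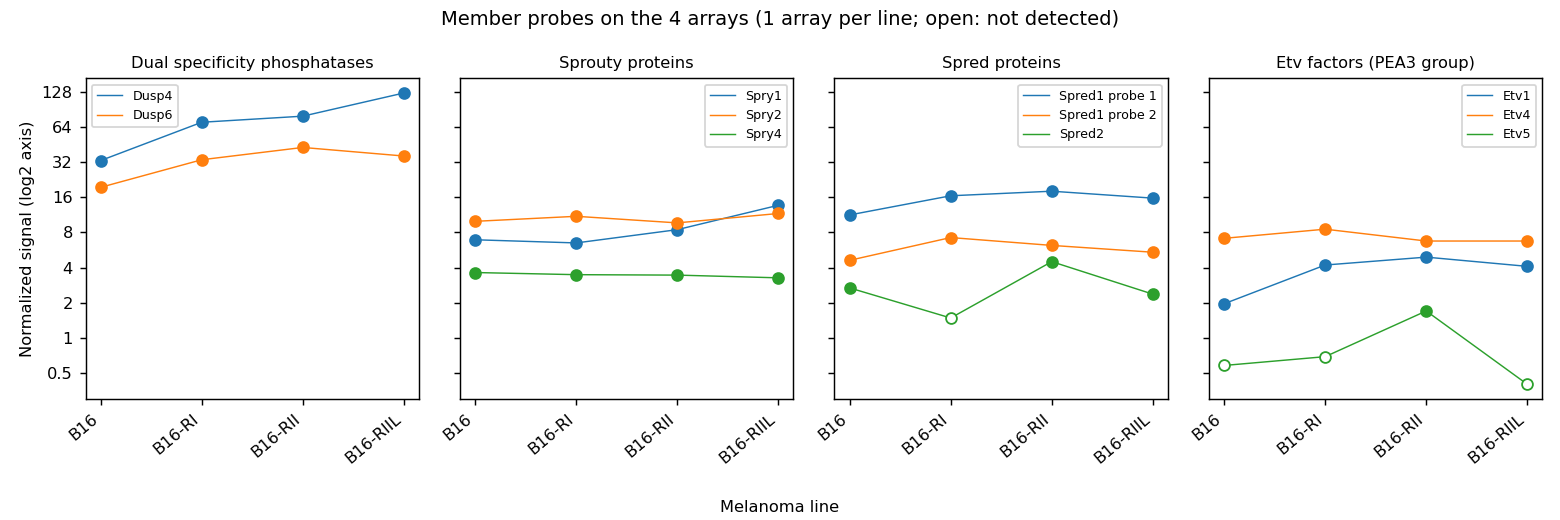
Normalized signal (log2 axis) of the 11 member probes on the 4 arrays, 1 array per line, by protein family. Filled points were detected, open points were not, and heights of different probes cannot be compared. Dusp4 goes from 33.1 on B16 to 125.5 on B16-RIIL, Spry4 stays between 3.27 and 3.63, and Etv5 is detected only on B16-RII.

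Dusp4 encodes a nuclear dual specificity phosphatase that dephosphorylates ERK and other MAP kinases. Its normalized signal was 33.1, 70.5, 79.4 and 125.5, with an S/N between 25.8 and 71.5. B16 was the lowest and B16-RIIL the highest of the 4 arrays. This was 2.13-fold, 2.40-fold and 3.79-fold B16. The log2 difference of 1.92 in B16-RIIL was higher than that of 99.3% of the 6197 probes of its probe set that were detected on both arrays. The values in B16-RI and B16-RII, 1.09 and 1.26, were higher than those of 96.4% of 5971 and 97.1% of 6180. With the probe sets centred, Dusp4 was 0.69, 0.84 and 1.40 log2 units above B16, each larger than the disagreement of 90% of probe pairs in its line. The 2-fold limit was passed in B16-RIIL under the deposited scaling and the 4 other scalings run, while in B16-RI and B16-RII it fell short of 2-fold under some of them.

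Dusp4 lies on chromosome 8 in the RefSeq gene table. The other 401 genes of that chromosome detected on all 4 arrays had a median centred log2 difference from B16 of 0.06 in B16-RI, 0.09 in B16-RII and 0.36 in B16-RIIL. Within the probe set of Dusp4, which held 221 probes of those genes, the medians were 0.05, 0.09 and 0.29, so Dusp4 in B16-RIIL stood 1.12 log2 units above the chromosome. Its difference exceeded those of 99.1% of the 221 probes. The part of the chromosome-wide shift in the Dusp4 signal was not tested.

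Dusp6 encodes a cytoplasmic phosphatase that acts mainly on ERK and is itself an ERK target. Its normalized signal was 19.5, 33.6, 42.9 and 36.2, with an S/N of at least 50.2. All 3 passaged arrays were above B16, and among themselves they differed by at most 1.27-fold. The ratio to B16 was 1.72 in B16-RI, 2.20 in B16-RII and 1.85 in B16-RIIL, so the 2-fold limit was passed in B16-RII alone with the deposited values, and under 0 of the 4 other scalings run. After centring, the log2 differences were 0.78, 0.71 and 0.88, which no longer reached 2-fold in any line and no longer set B16-RII above the others. The value in B16-RII was under the disagreement of 90% of probe pairs there, and the other values were over it. Within its probe set, Dusp6 was nevertheless higher than 96.1%, 96.1% and 96.8% of the probes detected on both arrays. The Dusp6 promoter is shown because this gene is a textbook ERK target that was above B16 on all 3 passaged arrays. The sequence is from RefSeq, chr10:99262981-99263280 on the plus strand of GRCm38.p6, from 250 bases before to 50 bases after the annotated start. It contains none of the 4 motifs searched on either strand, so no base is in capitals. These were the ETS motif CCGGAA, the AP-1 site TGANTCA, the CRE core TGACGT and the E-box CACGTG. Shorter or other forms of ETS site were not searched.
Dusp6: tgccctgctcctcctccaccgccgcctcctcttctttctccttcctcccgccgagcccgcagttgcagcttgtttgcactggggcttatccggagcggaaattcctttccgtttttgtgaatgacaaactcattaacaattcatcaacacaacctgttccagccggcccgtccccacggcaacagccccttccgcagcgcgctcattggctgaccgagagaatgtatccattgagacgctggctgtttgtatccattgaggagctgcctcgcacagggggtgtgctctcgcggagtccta

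Sprouty proteins restrain receptor tyrosine kinase signalling at the level of RAS and RAF, and their genes respond to ERK in many tissues. Spry1 had normalized signals of 6.93, 6.51, 8.46 and 13.7. B16-RIIL was the highest, and the other 3 arrays lay within 1.30-fold. Against B16 the Spry1 ratio was 0.94, 1.22 and 1.98, just under 2-fold in B16-RIIL (with median scaling its log2 difference there was 1.03, past the limit), and against B16-RI it was 2.10 in B16-RIIL. Above B16-RI by at least 2-fold in B16-RIIL were 11.0% of all probes. With the probe sets centred, the Spry1 difference from B16 was -0.49 in B16-RI, -0.14 in B16-RII and 0.46 in B16-RIIL, and that between B16-RIIL and B16-RI was 0.95 log2 units, short of 2-fold. The 3 centred differences from B16 were under the disagreement of 90% of probe pairs in their lines.

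Spry2 had signals of 9.97, 11.01, 9.67 and 11.6 on B16, B16-RI, B16-RII and B16-RIIL. Spry4 had signals of 3.63, 3.48, 3.45 and 3.27 in the same order, with an S/N between 4.59 and 10.4. Its range of 1.11-fold was the smallest of any member probe with the deposited values, though not after centring. For both genes the lines lay so close that no order among them can be read. In B16-RII, where the median of each probe set was about 0.4 log2 units above B16, both stayed level with B16. Set against those medians, Spry2 was 0.47 and Spry4 0.50 log2 units below B16 in B16-RII, higher than only 16.2% and 15.0% of the probes of their sets detected on both arrays. Both values were under the disagreement of 90% of probe pairs. The Spry2 promoter is shown because it was the single member promoter with the ETS motif searched, CCGGAA. RefSeq gives it as chr14:105896770-105897069 on the minus strand of GRCm38.p6. The match, in capitals, begins at position 34 counted from the annotated start.
Spry2: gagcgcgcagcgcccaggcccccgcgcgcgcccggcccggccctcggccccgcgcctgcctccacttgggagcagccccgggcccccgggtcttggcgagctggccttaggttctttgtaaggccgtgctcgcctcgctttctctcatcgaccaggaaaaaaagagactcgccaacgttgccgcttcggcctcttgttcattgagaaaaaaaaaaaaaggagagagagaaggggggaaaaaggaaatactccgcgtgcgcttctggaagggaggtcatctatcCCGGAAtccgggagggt

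Spred proteins carry the Sprouty domain together with an EVH1 domain and bring neurofibromin, which inactivates RAS, to the membrane. Loss of SPRED1 is known from mucosal melanoma. Spred1 had 2 probes. Probe 1 gave 11.3, 16.5, 18.1 and 15.8, and probe 2 gave 4.62, 7.24, 6.20 and 5.42. B16 was the lowest array for both probes, but the highest was B16-RII for probe 1 and B16-RI for probe 2. Their log2 differences from B16 were 0.55 and 0.65 in B16-RI, 0.68 and 0.42 in B16-RII, and 0.48 and 0.23 in B16-RIIL. Both probes were above B16 in every passaged line with the deposited values. After centring, the differences were 0.15 and 0.25 in B16-RI, 0.25 and -0.003 in B16-RII, and -0.04 and -0.29 in B16-RIIL, so the direction in B16-RIIL turned with the scaling for both probes and that of probe 2 in B16-RII was lost.

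Spred2 had signals of 2.68, 1.48, 4.50 and 2.37. It was not detected on B16-RI, where its S/N was 2.74, and the other S/N values were 12.4, 14.9 and 8.19. B16-RII was the highest array and B16-RI the lowest, with B16 and B16-RIIL between them. In measured signal B16-RI was 1.81-fold below B16, and B16-RII was 1.68-fold above it. After centring, the log2 differences from B16 were -1.25, 0.32 and -0.70 in B16-RI, B16-RII and B16-RIIL. Between the lymph node lines of successive injections, Spred2 measured 3.04-fold higher in B16-RII than in B16-RI, where 10.1% of all probes were at least 2-fold higher. With the probe sets centred this measured difference was 1.57 log2 units, and 6.93% of all probes were above. From B16-RII to B16-RIIL the log2 difference was -0.93, higher than that of only 1.21% of the probes of its set detected on both arrays, and -1.02 after centring. The Spred2 promoter is shown as the single member promoter with a CRE core. RefSeq gives it as chr11:19924192-19924491 on the plus strand of GRCm38.p6. The match, in capitals, lies on the opposite strand and begins at position -52.
Spred2: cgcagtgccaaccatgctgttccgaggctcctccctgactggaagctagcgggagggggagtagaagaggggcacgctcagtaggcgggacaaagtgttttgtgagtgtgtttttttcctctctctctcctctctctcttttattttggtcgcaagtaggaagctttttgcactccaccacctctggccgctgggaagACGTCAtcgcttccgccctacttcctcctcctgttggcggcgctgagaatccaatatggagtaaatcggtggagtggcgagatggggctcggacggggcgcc

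Etv1, Etv4 and Etv5 form the PEA3 group of ETS factors, which act downstream of receptor tyrosine kinases. ETV1 is known as an oncogene in melanoma that cooperates with MITF. Etv1 had signals of 1.96, 4.21, 4.92 and 4.10. Its S/N was 4.29 on B16 and 4.11 on B16-RI, close to the detection limit, and 20.8 and 11.2 on the other arrays. All 3 passaged arrays were above B16 and lay within 1.20-fold of each other. The ratio to B16 was 2.15, 2.51 and 2.09 in B16-RI, B16-RII and B16-RIIL. After centring, the log2 differences were 0.71, 0.90 and 0.54, so the 2-fold limit was not reached in any line. The value in B16-RIIL was under the disagreement of 90% of probe pairs there, and the other values were over it. The Etv1 difference was higher than that of 96.7%, 97.6% and 92.5% of the probes of its set. RefSeq lists 2 Etv1 promoters. The first, chr12:38779832-38780131 on the plus strand of GRCm38.p6, is shown because Etv1 was the single member besides Dusp4 past the 2-fold limit in all 3 passaged lines with the deposited values. It contains none of the 4 motifs.
Etv1: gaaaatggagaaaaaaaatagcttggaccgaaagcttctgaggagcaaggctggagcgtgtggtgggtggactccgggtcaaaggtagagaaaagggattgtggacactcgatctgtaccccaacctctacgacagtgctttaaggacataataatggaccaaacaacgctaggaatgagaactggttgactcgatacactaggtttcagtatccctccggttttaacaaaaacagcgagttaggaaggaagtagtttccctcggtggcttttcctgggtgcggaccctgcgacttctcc

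Etv4 had signals of 7.13, 8.54, 6.76 and 6.76, with an S/N of at least 14.1. The 4 arrays lay within 1.26-fold, with B16-RI the highest. With the probe sets centred, Etv4 was -0.14, -0.50 and -0.60 log2 units from B16. Etv5 was detected on B16-RII alone, with a signal of 1.70 and an S/N of 4.92. The signals of the other arrays, 0.58, 0.69 and 0.40 for B16, B16-RI and B16-RIIL, had S/N values of 1.00, -0.73 and 1.27. The B16-RII signal was 2.93-fold the measured signal of B16 and 2.46-fold that of B16-RI, and B16-RIIL measured 4.25-fold below B16-RII. Below B16-RII by at least 2-fold in B16-RIIL were 9.40% of all probes, and Etv5 was the single member among them. These Etv5 ratios rest on a single detected signal near the limit, and with an S/N of at least 5 it would not have been detected.

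Between the passaged lines few member probes passed the limit. From B16-RI to B16-RII those of Spred2 and Etv5 were above and none was below, where 10.1% of all probes were above and 6.70% below. From B16-RI to B16-RIIL that of Spry1 was above and none was below, with 11.0% and 8.24% of all probes. From B16-RII to B16-RIIL none was above and that of Etv5 was below, with 7.67% and 9.40%. After centring, Spred2 and Etv5 were above in the first of these steps, with 6.93% above and 8.25% below over all probes. No member passed the limit in the second, with 10.1% and 8.65%, and Spred2 and Etv5 were below in the last, with 8.91% above and 6.65% below. Dusp4 was 1.78-fold higher in B16-RIIL than in B16-RI and 1.58-fold higher than in B16-RII.

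**Figure D2:**
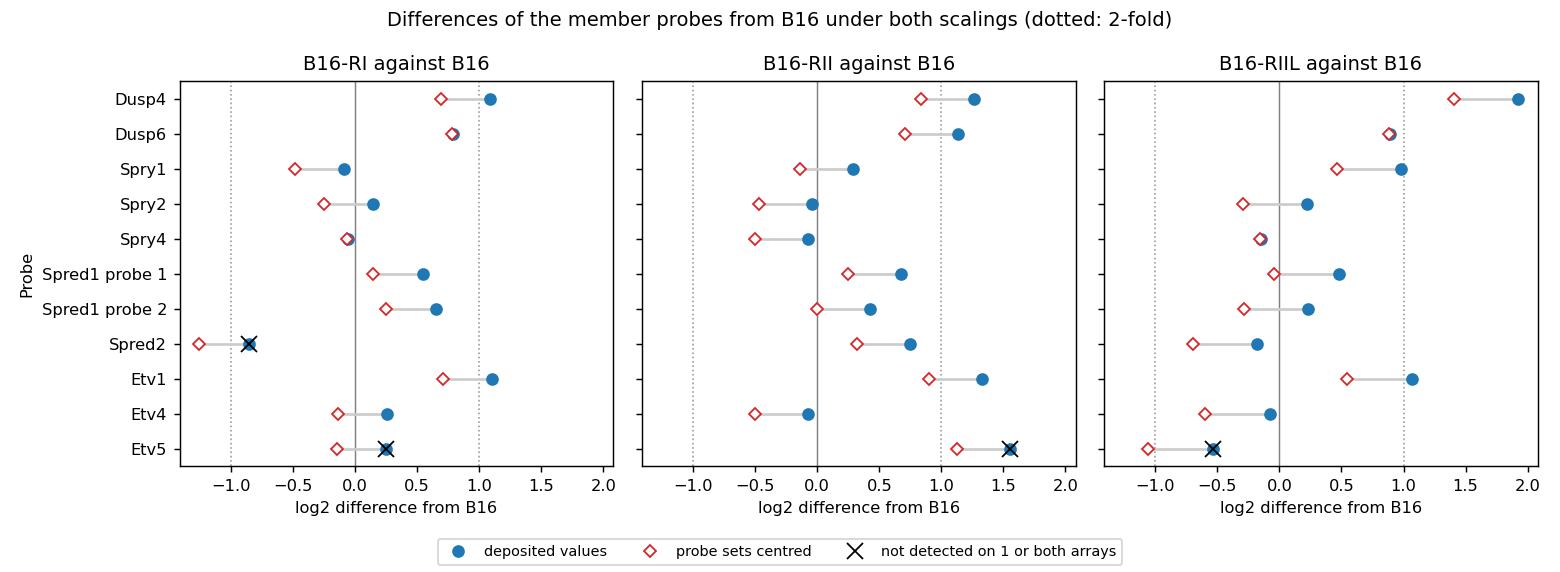
Log2 difference of each member probe from B16 in the 3 passaged lines, with the deposited values (filled circles) and after centring by probe set (open diamonds). Dotted lines mark 2-fold, and crosses mark probes not detected on 1 or both arrays. Dusp4, Dusp6 and Etv1 lie right of 0 under both scalings in all 3 panels, and in B16-RIIL Dusp4 stays past 2-fold with 1.92 and 1.40.

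**Figure D3:**
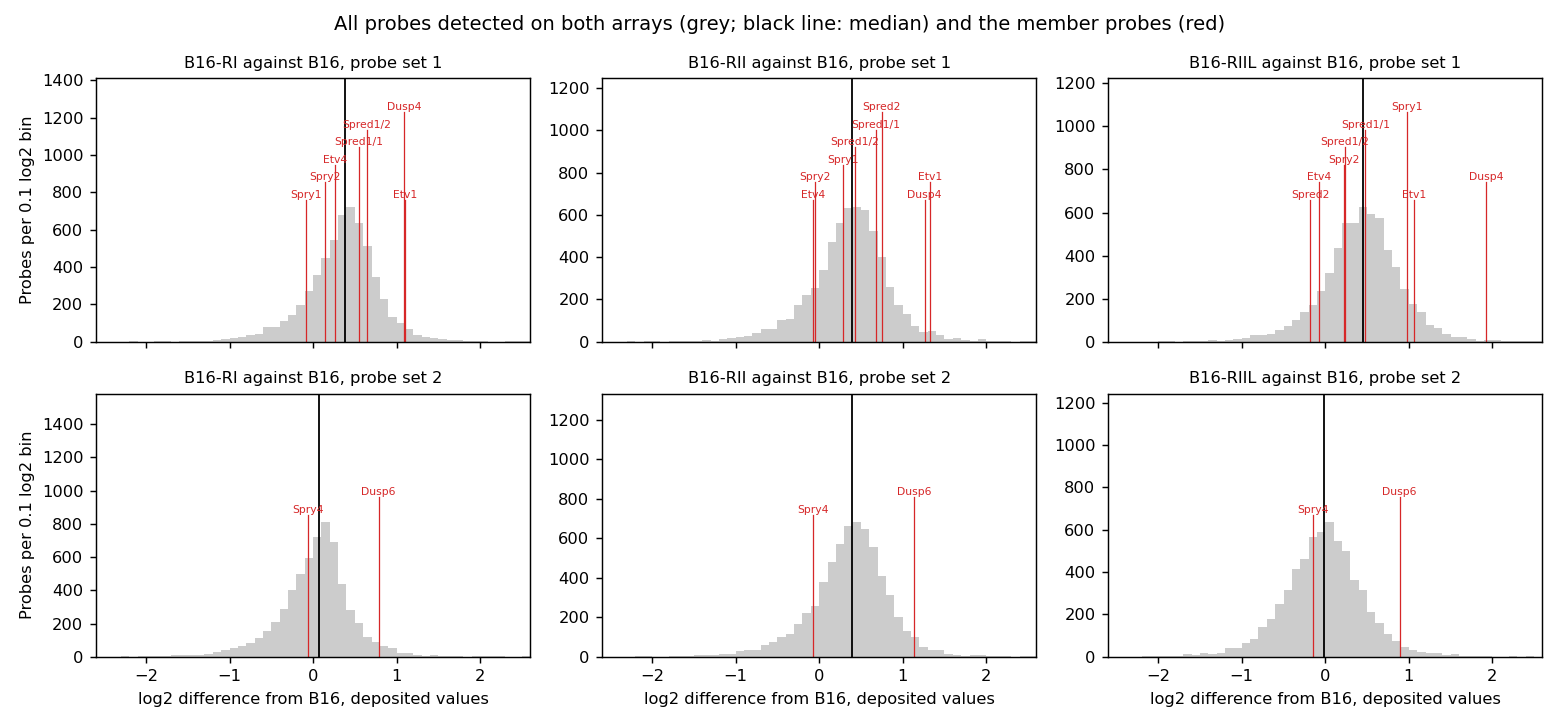
Number of probes per bin of log2 difference from B16 (grey bars) for probes detected on both arrays, by comparison and probe set, with the median of those probes (black) and the member probes detected on both (red). The first probe set is shifted to the right of 0 in all 3 comparisons and the second in B16-RII, and Dusp4, Dusp6 and Etv1 lie in the right tail of their own set.

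The promoter table held 9 promoters of 7 members, Dusp6, Spry1, Spry2, Spred1, Spred2, Etv1 and Etv5, and Dusp4, Spry4 and Etv4 were not matched. Of the 9, 1 held the ETS motif CCGGAA, 1 the CRE core, and 0 the AP-1 site or the E-box. Among all 32851 promoters of the same length, 14.9% held this ETS motif, 7.51% the CRE core, 7.81% the AP-1 site and 7.15% the E-box. The members' GC content ran from 44.0% in the other Etv1 promoter to 74.0% in the promoter of Etv5 listed first, with a median of 60.0% beside 52.7% over all promoters. These counts describe windows of 300 bases and the exact motifs searched, and say nothing of distal sites or of other forms of ETS site.

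Around these members, probes of the wider pathway passed the limit at shares below the background with the deposited values. A list of 66 other genes was used, covering the core cascade from adaptors to ERK, negative regulators, other ETS factors and other outputs, and 60 of them were on the array with 68 probes. Of those, 56 probes were detected on at least 1 array. The 2-fold limit was passed upwards by 5, 4 and 5 probes in B16-RI, B16-RII and B16-RIIL, which is 9.43%, 7.69% and 9.26% of those detected on at least 1 of the 2 arrays. It was passed downwards by 3, 3 and 1 probes, or 5.66%, 5.77% and 1.85%. With the deposited values all 6 shares were lower than the background shares given above, and no test of the difference was run. After centring, 5, 2 and 3 probes were above B16, or 9.43%, 3.85% and 5.56%, against 7.93%, 6.62% and 8.12% over all probes. Below B16 were then 4, 6 and 3 probes, or 7.55%, 11.5% and 5.56%, against 11.3%, 11.4% and 10.4%. The median log2 difference over the list was 0.12, 0.33 and 0.21, beside 0.19, 0.39 and 0.22 over all probes, and -0.12, -0.09 and -0.02 after centring.

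In the core cascade, 2 of 15, 1 of 14 and 3 of 16 detected probes passed the limit upwards in B16-RI, B16-RII and B16-RIIL, or 13.3%, 7.14% and 18.8%, against 10.2%, 13.1% and 12.7% of all probes. After centring the counts were 2, 0 and 2, or 13.3%, 0% and 12.5%, against 7.93%, 6.62% and 8.12%. None was below B16 in any line, where 9.34%, 7.60% and 8.41% of all probes were with the deposited values and 11.3%, 11.4% and 10.4% after centring. Sos1, an exchange factor that loads RAS with GTP, had signals of 5.95, 16.6, 15.1 and 9.22, so it was highest in the lymph node lines. It was 2.79-fold and 2.54-fold B16 in those lines and 1.55-fold in B16-RIIL. After centring, Sos1 fell short of 2-fold in B16-RII at 0.92 log2 units. Gab1, a docking protein for receptor tyrosine kinases, was not detected on B16. It measured 2.31-fold B16 in B16-RI and 4.31-fold in B16-RIIL. On B16-RII Gab1 was not detected either, with a signal of 1.54 and an S/N of 2.03. Ksr1, a scaffold for RAF and MEK, was detected on B16-RIIL alone, where it measured 3.97-fold B16. Mapk3, which encodes an ERK kinase, had signals of 25.6, 42.6, 48.7 and 57.4 in the order B16, B16-RI, B16-RII and B16-RIIL. It was 2.24-fold B16 in B16-RIIL, and 0.65 log2 units above it after centring, short of 2-fold.

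Among the negative regulators outside the members, 3 of 15, 2 of 16 and 1 of 15 detected probes were at least 2-fold below B16 in B16-RI, B16-RII and B16-RIIL, or 20.0%, 12.5% and 6.67%, against 9.34%, 7.60% and 8.41% of all probes. Above B16 were 0, 1 and 0. After centring, 4, 4 and 3 were below, or 26.7%, 25.0% and 20.0%, against 11.3%, 11.4% and 10.4% of all probes, and 0, 1 and 0 were above. No test of these differences was run. Joining after centring were Nf1, which encodes neurofibromin, in all 3 lines, Dusp2 in B16-RII and probe 2 of Pebp1 in B16-RIIL. Nf1 is named after its values were seen. It was detected on B16 alone, with a signal of 1.22, and the passaged lines measured 1.88-fold, 1.65-fold and 1.51-fold lower with the deposited values. Dusp8, a phosphatase that acts mainly on JNK and p38, had signals of 17.6, 7.15, 8.73 and 10.5. B16 was the highest array, and the ratios were 2.46-fold, 2.01-fold and 1.67-fold below it, opposite in direction to Dusp4 and Dusp6. The Dusp8 difference stayed past 2-fold in B16-RI and B16-RII after centring, at -1.30 and -1.43 log2 units. Dusp2, an inducible nuclear phosphatase, was detected on B16 alone, and B16-RI measured 2.85-fold below it. Dusp9 was detected on B16-RII alone, where it measured 4.28-fold B16, although its signal of 1.99 on B16-RI, with an S/N of 2.85, was higher still. Pebp1, a phosphatidylethanolamine binding protein, had 2 probes that disagreed. Its probe 2 was detected on B16 alone, with a signal of 2.5 there, and measured 3.05-fold and 4.03-fold lower in B16-RI and B16-RII. Its probe 1 was detected on every array and lay between 0.20 and 0.39 log2 units above B16 with the deposited values, while after centring it lay on the other side of B16, between -0.20 and -0.11.

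Among the other ETS factors, Gabpa, a widely expressed member of the family, was not detected on B16 with an S/N of 2.93 and gave detected signals of 6.54, 4.50 and 3.69 in B16-RI, B16-RII and B16-RIIL. Its measured ratio to B16 was 4.36, 3.0 and 2.46 in these lines. After centring the measured difference in B16-RIIL was 0.78 log2 units, short of 2-fold, with the B16 signal itself not detected. Among the other outputs, probe 1 of Egr3, an immediate early transcription factor, was detected on B16-RI and B16-RIIL. It measured 6.24-fold and 2.76-fold B16 there, and probe 2 was detected on no array. Junb, an AP-1 subunit, had signals of 3.45, 2.47, 1.31 and 3.30, so B16-RII was 2.63-fold below B16 while B16-RIIL was level with it. Rps6ka2, which encodes a kinase activated by ERK, was detected on B16-RII alone, where it measured 2.28-fold B16. After centring the measured Rps6ka2 difference was 0.76 log2 units, under the limit. Another 2 were past the limit, Elk1 above B16 in B16-RI and Dusp10 below it in B16-RIIL.

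**Figure D4:**
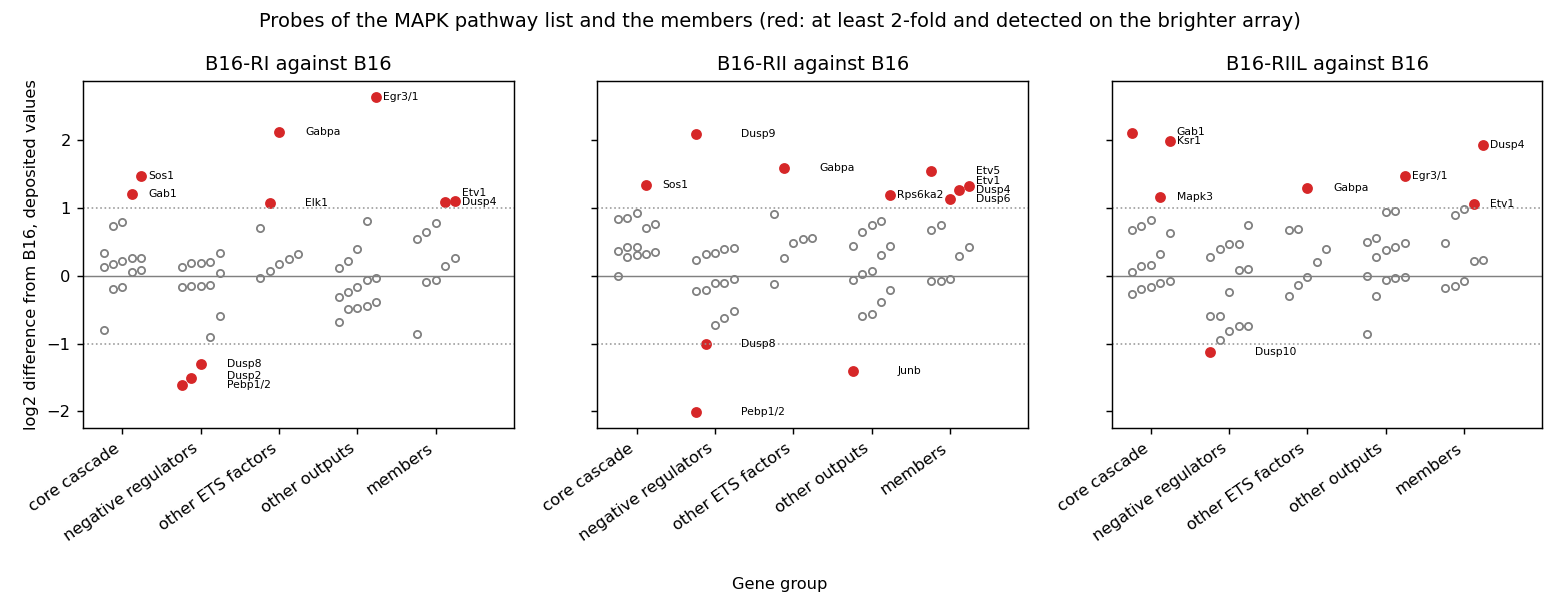
Log2 difference from B16 with the deposited values for the probes of the pathway list in 4 groups and for the members, each point a probe detected on at least 1 of the 2 arrays. Red points are at least 2-fold from B16 and detected on the brighter array, and dotted lines mark 2-fold. With these values the members past the limit lie above B16, while after centring Spred2 is past it downwards in B16-RI. Of the negative regulators that are no members, those past it lie below B16 except for Dusp9 in B16-RII, and no test between groups was run.

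Markers of cells that cultures from lymph node or lung could hold were also read. Their sums add signals of different probes and serve only to compare arrays. Of 5 macrophage probes, between 0 and 1 were detected per array, with a summed signal of 3.49, 3.68, 4.41 and 3.46 on B16, B16-RI, B16-RII and B16-RIIL. Of 4 endothelial probes, 0, 0, 1 and 1 were detected, with sums of 1.89, 2.96, 4.02 and 2.30. Of 4 fibroblast probes, 2, 1, 2 and 2 were detected, with sums of 10.6, 17.8, 10.7 and 20.5. Of 5 lymphocyte probes, 1, 2, 1 and 3 were detected, with sums of 58.7, 70.5, 83.6 and 63.6, nearly all of it from a Cd79a probe that was detected on every array at 56.0 to 80.2, B16 included. The defining leukocyte gene Ptprc was detected on none of the 4 arrays. The fibroblast sum, most of it from a Col1a2 probe detected on every array, was highest on B16-RIIL, as was Dusp4. It was higher on B16-RI than on B16-RII, where Dusp4 had the opposite order. Col1a1 was highest on B16, at 3.5, and Dcn and Pdgfra were detected on no array. The macrophage and endothelial sums were highest on B16-RII, the single array with Etv5 detected. There the macrophage sum came mostly from signals not detected, with a single Csf1r probe detected at 0.70. The other Csf1r probe was detected on B16 alone, at 1.28. The part of these cells in the member values was not tested.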

How the data were processed

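RNA of 4 mouse melanoma lines was read on chemiluminescent arrays of Applied Biosystems, and values of 1 array per line were used. The authors deposited the raw signal intensity, a normalized signal intensity, and 2 scores of the analyzer, a flag and the signal-to-noise ratio. The deposited normalized intensity was found to be the raw intensity divided by 1 of 2 constants per array, and was not quantile normalized, the method the paper names. The 16 columns of the arrays that match the sample labels were used. Another 30 columns, 20 of per-sample values and 10 of ratios, belong to second arrays of the same 4 lines, to which no labelled sample corresponds, and 14 hold ratios and log2 values computed by the authors. These columns, some of which hold the authors' own comparisons, were not used.

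The log2 of the normalized signal was taken with no pseudocount. A probe was above or below another line when the lines differed by 1 log2 unit or more and the brighter signal was detected. Where the dimmer signal was not detected, the higher of its own value and the lowest detected signal of its array took its place. In every such ratio given, its own value was the higher, so these are measured ratios and not bounds. Detection was judged by S/N, and a probe not detected may have a true level above its measured signal. Counts are over all probes of a list, and medians over genes, each represented by its brightest probe. The background is the share of probes past the same limit among those detected on at least 1 of the 2 arrays. The members and lists were chosen with earlier results of these data known. Of the pathway list, the 12 probes with the largest difference past the limit are named with values. Elk1, Dusp10 and Nf1 were named after their values were seen, and the comparison of probe pairs and of chromosome 8 was also chosen after seeing the data.

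Alternatives rescaled the raw signals by quantiles, by the median or by the 75th percentile, or used centring of each probe set, other detection filters and other size limits. Symbols were matched to RefSeq, assembly GRCm38.p6, for 16186 of 17302 probes with a symbol. Genome coordinates of the probes are not given in the sources used here, and protein sequences were not analysed here. Python 3.11.15, numpy 2.4.6, pandas 2.3.3 and matplotlib 3.10.9 were used. With 1 array per line used, the spread between duplicates is not part of any value, precision is limited by the number of arrays, and no test between lines was run.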

Additional observations from a re-analysis of the deposited data

Results flagged for a closer look

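Spred2 lay on opposite sides of B16 in the 2 lymph node lines. Its log2 difference was 0.75 in B16-RII with the deposited values. After centring it was 0.32 there, under the 0.73 that marks the disagreement of 90% of probe pairs. In B16-RI Spred2 was not detected, and the measured difference was -0.86 with the deposited values and -1.25 after centring. The difference between the lines was not tested, since 1 array per line was used and the second arrays, which match no sample label, were not.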

How the results depend on the processing

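No paired analysis was possible because the columns used give 1 array per line, with the second arrays of the lines not used here since no sample label matches them. No replicate was left out for the same reason. Of 156 alternative values for 18 counts and medians, 111 stayed within 1.5 times of the value reported, differences being compared as fold, and of 132 for single member probes 131 did. On the log2 scale small differences could change sign within that tolerance, as did the member median in B16-RI, 0.26 with the deposited values and -0.07 after centring. The exception was Dusp6 in B16-RII, 1.14 log2 units with the deposited values and 0.50 after quantile normalization. No member probe past the limit changed direction under any scaling run. The limit of 2-fold was held under all 4 other scalings by Dusp4 in B16-RIIL and Etv5 in B16-RII only. In B16-RI Dusp4 stayed past it with median scaling alone, and in B16-RII with median and 75th percentile scaling. Signal over background limits the ratios of Etv5, the Spred2 ratios that involve B16-RI, and those of list probes not detected on 1 array. These set a detected signal against a signal not detected. For changes under another scaling the cause was not tested, and those under another limit or filter follow from its construction.

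For members above B16 in B16-RI, B16-RII and B16-RIIL, centring of the probe sets gave 0, 1 and 1 and a 4-fold limit gave 0, 0 and 0. In B16-RI they were 1 with quantile normalization, 0 with 75th percentile scaling, 1 with an S/N of at least 5 and 4 at 1.5-fold. In B16-RII they were 2 with quantile normalization. In B16-RIIL they were 1 with 75th percentile scaling, 3 with median scaling, where Spry1 joined, and 4 at 1.5-fold. Below B16 in B16-RI was 1 member probe, that of Spred2, with quantile normalization, with 75th percentile scaling, with centring and at 1.5-fold.

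For the pathway list, probes above B16 in the 3 lines were 9, 13 and 14 at 1.5-fold, 2, 1 and 1 at 4-fold, and 1, 1 and 1 with detection on every array. Probes below were 7, 6 and 8 at 1.5-fold and 0, 1 and 0 at 4-fold. With centring, 2 were above in B16-RII and 3 in B16-RIIL, and 6 and 3 were below. With 75th percentile scaling 5 were below in B16-RII and 4 in B16-RIIL, and with quantile normalization 3 were below in B16-RIIL. With detection on every array 1 was below in B16-RI and 0 in B16-RIIL. Without a filter 5 were below in B16-RI and 2 in B16-RIIL. With an S/N of at least 5, 3 were above and 0 below in B16-RIIL.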

Other observations

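Myc and Ccnd1, outputs of growth factor signalling that drive cell growth and entry into the cell cycle, lay near the 2-fold limit on the lung line array and in opposite directions. They were picked out after their values were seen. Myc had normalized signals of 123, 133, 107 and 238, a log2 difference from B16 of 0.95 in B16-RIIL and 0.43 after centring. Ccnd1 had signals of 128, 149, 131 and 70.8 in the same order, a log2 difference of -0.86 in B16-RIIL with and without centring.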
